A study of Homo sapiens with 6 samples.

Results

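The 9 genes described here mark the osteoblast lineage, the bone-forming cells to which osteosarcoma is related: RUNX2, SP7, DLX5, MSX2, SPP1, IBSP, ALPL, PHEX and TNFRSF11B. They were chosen by name for their known roles from 56982 gene identifiers present in both deposited expression tables. Earlier results of these data were known when they were chosen. All 9 matched a GENCODE 29 gene. U2OS is an established human osteosarcoma cell line. The tested cells were G3C2, a single U2OS line made by CRISPR/Cas9 targeting of ZFP36L1 and labelled deficient in it, a state the submitters checked by sequencing and western blot (3 libraries), and the controls were unedited wild-type (WT) U2OS cells (3 libraries). RNA was taken on 3 occasions from both, growing in log phase at 65 to 75% confluency, and no label says which library belongs to which occasion. ZFP36L1 encodes a protein that binds AU-rich elements in mRNAs and promotes their decay. With 1 edited line, an effect of the genotype and an effect of the line cannot be told apart.

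As background, RUNX2 is the transcription factor that commits mesenchymal progenitors to the osteoblast fate, and SP7 (osterix) acts downstream of it. The homeodomain factors DLX5 and MSX2 modulate that programme, DLX5 mostly as an activator and MSX2 often as a repressor. Differentiating osteoblasts then make acidic matrix proteins such as osteopontin (SPP1) and bone sialoprotein (IBSP), the alkaline phosphatase ALPL, which breaks down the mineralization inhibitor pyrophosphate, and the membrane endopeptidase PHEX, whose loss causes phosphate wasting. Osteoprotegerin (TNFRSF11B) is a secreted decoy receptor that blocks the osteoclast-inducing ligand TNFSF11.

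The promoters of the lineage factor RUNX2 and of the matrix genes SPP1 and IBSP are shown because the data separate them: RUNX2 and SPP1 transcripts were present and IBSP was listed at 0. Each is 300 bases long, from 250 before to 50 after a RefSeq gene start, on the plus strand of GRCh38.p14, written 5′ to 3′. Capitals mark AACCACA or its reverse complement TGTGGTT, a form of the element bound by RUNX factors, searched on both strands.
RUNX2, upstream start, chr6:45328080-45328379: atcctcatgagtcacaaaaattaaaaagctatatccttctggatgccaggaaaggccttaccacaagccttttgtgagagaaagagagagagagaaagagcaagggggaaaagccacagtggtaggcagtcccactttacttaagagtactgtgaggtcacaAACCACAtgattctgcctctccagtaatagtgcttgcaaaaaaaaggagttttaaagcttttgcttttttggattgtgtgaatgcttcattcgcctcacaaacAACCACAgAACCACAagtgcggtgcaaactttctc
SPP1, chr4:87975464-87975763: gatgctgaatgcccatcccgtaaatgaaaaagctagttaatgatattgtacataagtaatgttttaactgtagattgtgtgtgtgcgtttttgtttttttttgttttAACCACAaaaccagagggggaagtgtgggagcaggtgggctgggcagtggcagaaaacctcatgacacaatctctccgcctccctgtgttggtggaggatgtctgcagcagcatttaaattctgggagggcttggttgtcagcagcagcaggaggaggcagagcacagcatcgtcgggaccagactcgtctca
IBSP, chr4:87799304-87799603: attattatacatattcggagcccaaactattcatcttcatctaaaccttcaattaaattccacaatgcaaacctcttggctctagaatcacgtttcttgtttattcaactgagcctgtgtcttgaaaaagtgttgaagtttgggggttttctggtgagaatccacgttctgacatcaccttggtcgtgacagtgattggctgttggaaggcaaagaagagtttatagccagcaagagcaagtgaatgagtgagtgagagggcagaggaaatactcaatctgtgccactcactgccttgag
The upstream RUNX2 promoter held 3 matches, the SPP1 promoter 1 and the IBSP promoter 0. Of 35116 promoters of the same length in the RefSeq table, 4.27% held a match. The downstream RUNX2 start, the MSX2 start and the 3 ALPL starts held none. A match describes the letters of this window only.

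AU-rich elements were searched as TATTTAT, on the transcript strand, in the longest annotated 3′ untranslated region (UTR) of each gene. Of the 9 members, 3 held at least 1 match, RUNX2 with 2, SP7 with 1 and TNFRSF11B with 1, against 31.1% of 19145 protein-coding genes searched. The sites of RUNX2 and SP7 are shown because the edited gene encodes a protein that binds such elements. They are given as RNA-sense DNA in GRCh38 coordinates, with the match in capitals.
RUNX2 site 1, chr6:45548192-45548221, plus strand: ctttaaagataTATTTATaattatttaatg
RUNX2 site 2, chr6:45549527-45549556, plus strand: gtaattgatacTATTTATtgtttgtgtgtg
SP7, chr12:53327462-53327491, minus strand: agtaataattcTATTTATgtaagttatgat
The RUNX2 sites lay 898 and 2233 bases after the stop codon, in a UTR of 3777 bases. Of the 3 members with a match, RUNX2 and TNFRSF11B were higher in G3C2 under replicates 1 and b and lower under replicate c, and SP7 had 0 FPKM in 5 of 6 libraries. No test was made on the presence of a match.

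Expression was deposited as FPKM, fragments scaled by exon length and library depth, so levels can be compared between genes of different length. Replicate 1 of both lines stood in 1 table and replicates b and c in another. The tables had separate scales (summed FPKM of 712633 in G3C2 and 705014 in WT in the first, and between 235190 and 319282 in the second), so the lines were compared within a table. In the second table the steps between FPKM values gave between 22614634 and 28977502 whole reads per library, and every member came out as a whole number of reads. The divisors in the deposited FPKM did not follow these totals under replicate c: the divisor was 22558753 for G3C2 and 25406362 for WT, while the reads summed to 25844651 in G3C2 and 22614634 in WT. Relative to read totals, the deposited G3C2 over WT ratios are 1.29 times higher under replicate c and 1.01 times under replicate b. Scaling to the totals, an alternative chosen after seeing the data, moved the median difference of all tested genes under replicate c to -0.16, against 0.07 as deposited. Values below are on the deposited scale unless the totals are named, and the direction of every member's difference was the same on both scales. No depth could be read from the first table. The mitochondrial genome took 4.92%, 7.39% and 6.67% of the summed FPKM in G3C2 replicates 1, b and c, against 5.2%, 8.72% and 13.8% in WT. ZFP36L1 itself had 238.1, 105.1 and 82.4 FPKM in G3C2 replicates 1, b and c, against 165.2, 57.1 and 127.5 FPKM in WT (log2 fold change 0.26, SE 0.33, limma adjusted p = 0.752). Its mRNA does not check the edit, whose position is not given in the sources used here.

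Of the 9 osteoblast lineage genes, 4 were on in U2OS, meaning at least 1 FPKM in every WT library: RUNX2, SPP1, MSX2 and TNFRSF11B. The same 4 reached 1 FPKM in every G3C2 library. For comparison, 10485 of 19657 protein-coding genes (53.3%) were on in WT by this rule. ALPL, PHEX and DLX5 were detected below 1 FPKM in all 6 libraries, SP7 was listed above 0 in 1 library, and IBSP in none. At a minimum of 0.1 FPKM, 6 members counted in G3C2, where DLX5 joined the 4 and ALPL, and 6 in WT, where PHEX did. Of the 19657 protein-coding genes, 12939 counted in G3C2 and 67.1% in WT. At 5 FPKM only RUNX2 remained in G3C2, and RUNX2, SPP1 and MSX2 in WT, against 6409 protein-coding genes in G3C2 and 33.1% in WT. At 1 FPKM, 5 of the 9 osteoblast markers thus stayed under the level in cells labelled osteosarcoma. The WT counts lay near the shares of all protein-coding genes at each minimum, so they show nothing particular to these markers. In bulk RNA, fewer expressing cells and less RNA per cell cannot be told apart.

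**Figure D1:**
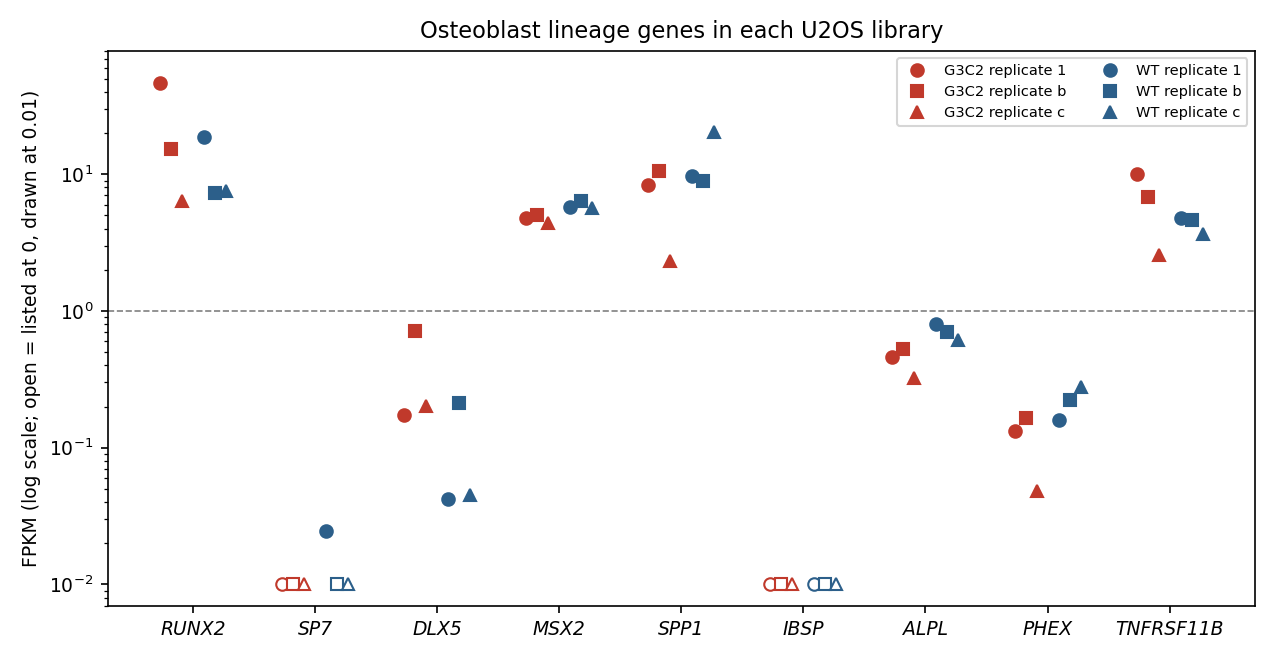
FPKM on a log scale for each of the 9 genes in each library, G3C2 in red to the left of WT in blue, with the replicate as the marker shape and the dashed line at 1 FPKM. RUNX2, MSX2, SPP1 and TNFRSF11B lie above the line in all 6 libraries, ALPL, PHEX and DLX5 below it, and open markers show values listed at 0.

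In the second table, on the deposited scale, the order of the WT levels was SPP1 (14.7 ± 8.17 FPKM), RUNX2 (7.42 ± 0.214), MSX2 (6.01 ± 0.53), TNFRSF11B (4.16 ± 0.68), ALPL (0.661 ± 0.0643), PHEX (0.25 ± 0.0394) and DLX5 (0.129 ± 0.118), each as mean ± SD of 2 libraries. SPP1 and RUNX2 did not differ beyond the SPP1 spread, and PHEX and DLX5 lay about as far apart as the DLX5 spread. In G3C2 the order began with RUNX2 (10.9 ± 6.31 FPKM), followed by SPP1 (6.46 ± 5.84), TNFRSF11B (4.72 ± 3.04) and MSX2 (4.7 ± 0.455), and these 4 did not differ beyond their spread. DLX5 (0.457 ± 0.36), ALPL (0.426 ± 0.143) and PHEX (0.107 ± 0.0826) followed, with DLX5 and ALPL within each other's spread. G3C2 thus had a wider spread than WT between replicates b and c for RUNX2 and TNFRSF11B, and both lines had a wide one for SPP1.

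RUNX2 (ENSG00000124813, chromosome 6, 45328157 to 45664349, plus strand) had 46.4, 15.3 and 6.41 FPKM in G3C2 replicates 1, b and c, against 18.7, 7.27 and 7.57 FPKM in WT. G3C2 was the higher under replicates 1 and b, by 2.49 and 2.11 times, and the lower under replicate c, at 0.846 times WT. Replicate c minus replicate b was -1.14 in G3C2 and 0.05 in WT for RUNX2 on the log2(FPKM + 1) scale. Scaled to read totals, the replicate c ratio was 0.657. In rank, RUNX2 stood within the top 15.4% and 16% of protein-coding genes in G3C2 replicates 1 and b and 31.8% in replicate c, against 31.5%, 29.4% and 27.4% in WT.

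Over all libraries the RUNX2 log2 fold change was 0.68 (SE 0.34, 95% interval -0.14 to 1.50, n = 3 each, limma adjusted p = 0.442), higher in G3C2 under 2 of 3 labels. Over all 15001 tested genes, 7 passed the adjusted threshold of 0.05 (0.0467%), 3 higher in G3C2 (0.02%) and 4 lower (0.0267%), and none of the 4 members tested did. At an unadjusted p under 0.05 limma had 13.6% of the genes and again none of the 4 members. Without replicate c the RUNX2 value was 1.13 (limma adjusted p = 0.00629), a fit with 1 residual degree of freedom among its libraries, in which 2.99% of tested genes were called higher, 3.05% lower and 6.03% either way. Without G3C2 replicate c alone it was 1.09 (limma adjusted p = 0.0752), and without replicate 1 it was 0.39 (limma adjusted p = 0.761). RUNX2 was the only one of the 4 to pass without replicate c, and its limma adjusted p lay between 0.00629 and 0.875 over all alternatives.

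SP7 (ENSG00000170374, chromosome 12, 53326575 to 53345315, minus strand) was listed at 0 FPKM in all 3 G3C2 libraries and in WT replicates b and c, and at 0.0247 FPKM in WT replicate 1. A count of 0 in the second table allows up to 3 reads, which is 0.0331 and 0.039 FPKM in G3C2 and 0.0296 and 0.0346 FPKM in WT. An exact 0 is read with care here, since 60 protein-coding genes had at least 10 FPKM in both libraries of the first table and 0 in all 4 of the second. For SP7 the first table was also at or near 0. SP7 missed the filter on low values, and no change is stated for it.

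DLX5 (ENSG00000105880, chromosome 7, 97020392 to 97024950, minus strand) had 0.175, 0.712 and 0.203 FPKM in G3C2, against 0.0419, 0.212 and 0.045 FPKM in WT. These ratios of 4.19, 3.36 and 4.5 rest on few reads, 33 and 8 in G3C2 replicates b and c, against 11 and 2 in WT. The counting intervals (exact conditional, 95%) were 1.66 to 7.36 for replicate b and 0.899 to 43.5 for replicate c. DLX5 never reached 1 FPKM and so missed the filter on low values. With no filter its log2 fold change was 0.29 (SE 0.15, limma adjusted p = 0.628), on a log2(FPKM + 1) scale that understates changes at such levels, and limma-voom, run on the reads of replicates b and c, gave 1.81 (SE 0.97, limma adjusted p = 0.663). That fit called 0.0272% of its 22021 genes, all lower in G3C2, and had 7.92% at an unadjusted p under 0.05, while the fit with no filter called none of 33895 and had 8.82% at that level. Of 1953 protein-coding genes above 0 and under 1 FPKM in every library, 7 (0.358%) had a ratio of at least 3 under all 3 labels, a minimum set after the DLX5 values were seen.

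MSX2 (ENSG00000120149, chromosome 5, 174724533 to 174730893, plus strand) was the steadiest member. It had 4.8, 5.02 and 4.37 FPKM in G3C2, against 5.73, 6.38 and 5.64 FPKM in WT. Under each label G3C2 lay below WT, at 0.838, 0.786 and 0.776 times, and at 0.603 times under replicate c when scaled to read totals. The log2 fold change was -0.27 (SE 0.14, 95% interval -0.60 to 0.06, limma adjusted p = 0.444), lower in G3C2 under 3 of 3 labels, as were 18.6% of all tested genes (25.7% when scaled to read totals), while 36.4% kept 1 direction under all labels. It lay between -0.38 and -0.22 over all 20 alternatives, with no limma adjusted p under 0.342.

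SPP1 (ENSG00000118785, chromosome 4, 87975650 to 87983426, plus strand) had 8.38, 10.6 and 2.33 FPKM in G3C2, against 9.69, 8.9 and 20.5 FPKM in WT. Under replicates 1 and b the lines were close, with G3C2 at 0.865 and 1.19 times WT. Under replicate c the lowest G3C2 library met the highest WT library, 122 reads against 1206, and WT was 8.78 times G3C2 (counting interval 7.28 to 10.7). Replicate c minus b was -1.80 in G3C2 and 1.12 in WT for SPP1 on the log2(FPKM + 1) scale. A ratio of at least 8 for WT over G3C2 under replicate c was found in 108 of 15001 tested genes (0.72%). That minimum, label and direction were set with the SPP1 value known, so the share does not judge it. Genes at 0 FPKM in G3C2 replicate c could not be counted.

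The SPP1 log2 fold change over all libraries was -0.88 (SE 0.54, 95% interval -2.20 to 0.44, limma adjusted p = 0.518), lower in G3C2 under 2 of 3 labels. Without replicate c it was 0.02 (limma adjusted p = 0.957), and without replicate b -1.44 (limma adjusted p = 0.0614), in a fit that called 0.4% of tested genes higher, 1.01% lower and 1.41% either way. Leaving out only G3C2 replicate c gave -0.27, and only WT replicate c -0.46. Under replicate c the mitochondrial share was 6.67% in G3C2 and 13.8% in WT, the highest of the 6 libraries, and its part in the SPP1 value was not tested.

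IBSP (ENSG00000029559, chromosome 4, 87799581 to 87812435, plus strand), which encodes the other acidic matrix protein of the set and lies near SPP1 on the same chromosome, was listed at 0 FPKM in all 3 G3C2 and all 3 WT libraries. Among replicates b and c, 3 reads would be 0.0732 and 0.086 FPKM in G3C2 and 0.0654 and 0.0764 FPKM in WT. No fold was computed.

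ALPL (ENSG00000162551, chromosome 1, 21509372 to 21578412, plus strand) had 0.463, 0.527 and 0.324 FPKM in G3C2, against 0.798, 0.706 and 0.615 FPKM in WT. Under each label G3C2 lay below WT, though all 6 values were under 1 FPKM. Of the 1953 low protein-coding genes described for DLX5, 25.5% were lower in G3C2 under all 3 labels. The reads behind replicates b and c were 42 and 22 in G3C2, against 63 and 47 in WT, with ratios of 0.746 (counting interval 0.492 to 1.12) and 0.527 (0.303 to 0.892). With no filter the log2 fold change was -0.25 (SE 0.13, limma adjusted p = 0.624).

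PHEX (ENSG00000102174, chromosome X, 22032441 to 22251310, plus strand) had 0.133, 0.165 and 0.0486 FPKM in G3C2, against 0.159, 0.222 and 0.277 FPKM in WT. G3C2 was below WT under each label. The gap was widest under replicate c, with 7 reads in G3C2 against 45 in WT (ratio 0.175, counting interval 0.0667 to 0.391), while replicate b had 28 against 42 (0.746, 0.445 to 1.23). With no filter the log2 fold change was -0.13 (SE 0.07, limma adjusted p = 0.63). Its 3 lower values are read against the same 25.5% of low genes as those of ALPL.

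TNFRSF11B (ENSG00000164761, chromosome 8, 118923557 to 118952200, minus strand) had 9.96, 6.87 and 2.57 FPKM in G3C2, against 4.78, 4.64 and 3.68 FPKM in WT. G3C2 was higher under replicates 1 and b, by 2.08 and 1.48 times, and lower under replicate c, at 0.7 times WT. The log2 fold change was 0.34 (SE 0.34, 95% interval -0.49 to 1.17, limma adjusted p = 0.69). Without replicate c it was 0.70 (limma adjusted p = 0.0579) and without G3C2 replicate c alone 0.75 (limma adjusted p = 0.133). In the second table alone it was 0.05 (limma adjusted p = 0.983). Its ligand TNFSF11 was listed at 0 FPKM in all 6 libraries, and the signalling receptor for that ligand, TNFRSF11A, did not exceed 0.0263 FPKM.

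**Figure D2:**
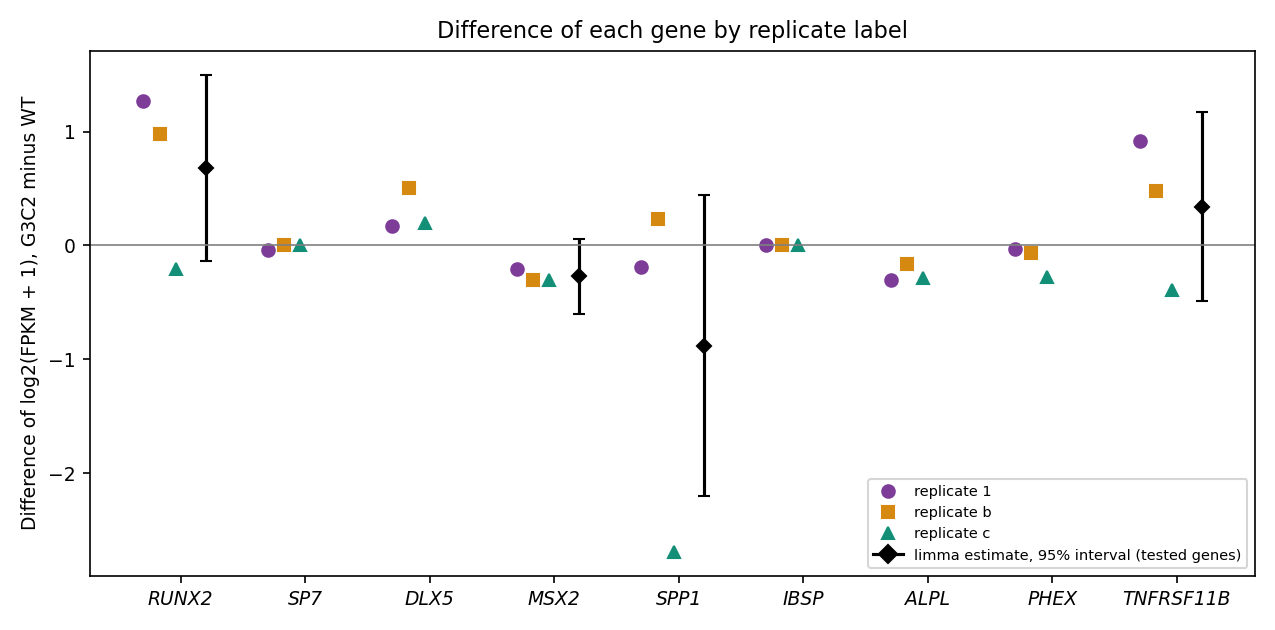
Difference of log2(FPKM + 1), G3C2 minus WT, for each of the 9 genes under replicates 1, b and c (coloured markers), with the limma estimate and its 95% interval in black for the 4 tested genes. RUNX2 and TNFRSF11B lie above 0 under replicates 1 and b and below it under c, SPP1 reaches -2.69 under replicate c, and every interval includes 0.

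**Figure D3:**
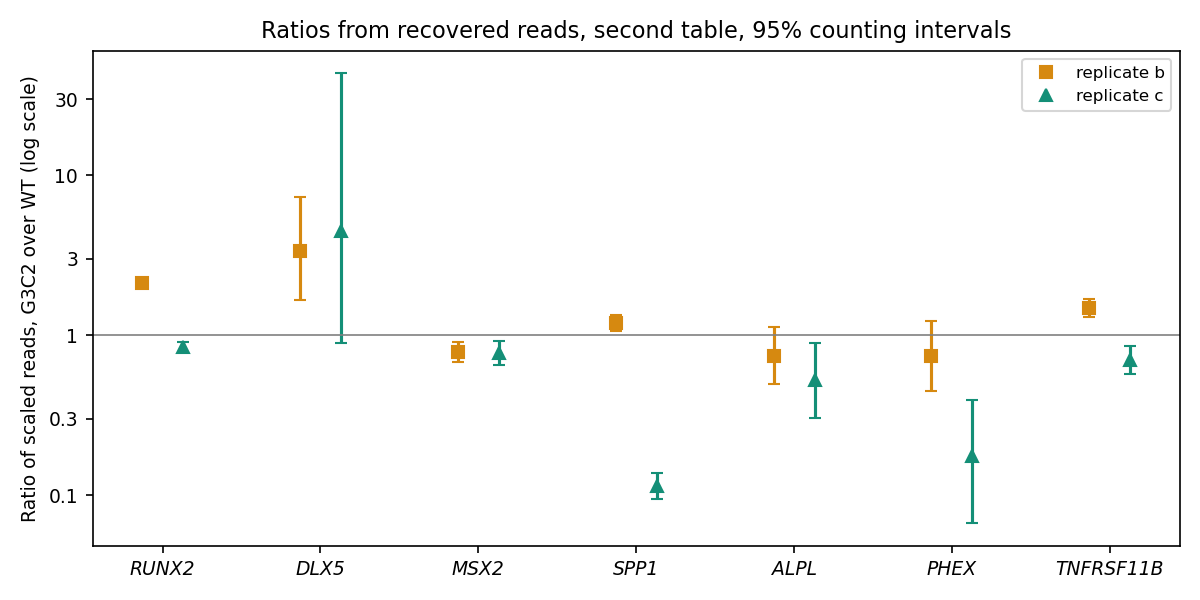
Ratio of recovered reads, G3C2 over WT, scaled by the deposited divisor, on a log axis for replicates b and c, with exact 95% counting intervals as bars. The intervals of RUNX2, SPP1 and TNFRSF11B lie on opposite sides of 1 under replicates b and c, those of MSX2 lie below 1 under both, and SP7 and IBSP are not drawn, having 0 reads.

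For RUNX2, SPP1 and TNFRSF11B the ratios under replicates b and c differed beyond counting error, as the plot of read ratios shows. The PHEX intervals, 0.445 to 1.23 under b and 0.0667 to 0.391 under c, did not overlap either, on few reads. Both PHEX ratios lay below 1. For MSX2, ALPL and DLX5 the intervals overlapped. RUNX2 had ratios of 2.11 (1.99 to 2.23) and 0.846 (0.784 to 0.913), and TNFRSF11B 1.48 (1.3 to 1.69) and 0.7 (0.572 to 0.853). MSX2 had 0.786 (0.676 to 0.913) and 0.776 (0.652 to 0.923). Scaled to read totals, the replicate c ratios were 0.657 for RUNX2, 0.544 for TNFRSF11B, 0.603 for MSX2 and 0.0885 for SPP1. These intervals cover counting error only, since reads after amplification are not independent molecules. Of all tested genes, 10.3% shared the pattern of RUNX2 and TNFRSF11B, higher in G3C2 under replicates 1 and b and lower under c. Over the 6 libraries, with values centred within each table, RUNX2 and TNFRSF11B had r = 0.93, SPP1 and MSX2 0.62 and RUNX2 and SPP1 0.19, given as a description of libraries that share their table and depth.

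By the same measure the protein-coding genes most like SPP1, the member with the largest mean WT FPKM in the second table, were PPP3CA (r = 0.9985), ANKRD34A (0.9980) and LMBR1L (0.9974). Those most like RUNX2, the tested member with the lowest unadjusted p, were ATXN1 (0.9996), ZNF502 (0.9979) and ETFBKMT (0.9974). With 6 libraries such values are common: 4.63% of 12151 genes reached 0.9 with SPP1 and 2.82% with RUNX2. ATXN1, also on chromosome 6, had differences of 0.36, 0.27 and -0.06 under replicates 1, b and c, smaller than those of RUNX2 (1.27, 0.98 and -0.21).

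None of 55 tested genes in 5 related lists passed the adjusted threshold in either direction, against 0.0467% of all tested genes. Of these 55, which exclude the members, 15 were higher and 6 lower in G3C2 under all 3 labels, against 17.8% and 18.6% of all tested genes, and their median log2 fold change was 0.09, against 0.01 over all tested genes. Scaled to read totals, 8 were higher and 8 lower, against 12.5% and 25.7% of all tested genes, with a median of 0.05 against -0.08. A gene may stand in more than 1 list, and SPP1 is also in the matrix list. The lists were chosen with earlier results of these data known. The same shares over all tested genes apply to each list below.

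Osteogenic signals and receptors had 16 tested of 22, with 7 higher and 0 lower under all 3 labels (5 and 0 when scaled to read totals). Over all tested genes the shares were 17.8% and 18.6% (12.5% and 25.7%). The list median was 0.30, against 0.01, and 0.18, against -0.08, when scaled to read totals. LRP6, 1 of the 16, was listed at 0 in replicates b and c of both lines and could not count in either direction. Without replicate c, 4 of the 16 were called higher and 0 lower. That fit, with 1 residual degree of freedom, called 2.99% of all tested genes higher and 3.05% lower. BMP7, a bone morphogenetic protein, had 20, 8.78 and 7.35 FPKM in G3C2, against 9.32, 3.87 and 3.75 FPKM in WT (log2 fold change 0.95, SE 0.14, limma adjusted p = 0.103). BMP4, of the same family, had 141, 31.4 and 44.9 FPKM in G3C2, against 55.4, 17.7 and 14 FPKM in WT (1.25, SE 0.19, limma adjusted p = 0.118). Both were higher in G3C2 under all 3 labels, as were 17.8% of all tested genes (12.5% when scaled to read totals). IGFBP5, a binding protein for insulin-like growth factors, followed the side of RUNX2, with differences of 2.17, 1.11 and -1.12, and NOG, a secreted BMP antagonist, had 0.34, -0.14 and 0.72.

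Osteoblast transcription regulators had 16 tested of 23, with 5 higher and 2 lower under all 3 labels (2 and 3 when scaled to read totals) and a median of 0.09. VDR, the vitamin D receptor, had 4.71, 3.28 and 3.3 FPKM in G3C2, against 10.9, 5.46 and 6.38 FPKM in WT (-0.81, SE 0.15, limma adjusted p = 0.135). HEY1, a Notch target, had a log2 fold change of -0.31 (SE 0.14, limma adjusted p = 0.399). The most abundant regulators were ATF4, a stress and osteoblast factor, at 0.26 (SE 0.25), and the AP-1 protein FOSL2 at 0.05 (SE 0.23).

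Bone matrix proteins had 13 tested of 20, with 3 higher and 1 lower under all 3 labels (1 and 2 when scaled to read totals) and a median of -0.02. By label the medians were 0.44, 0.33 and -0.78 for replicates 1, b and c, against -0.08, -0.01 and 0.07 over all tested genes. Scaled to read totals, the replicate c median was -1.10, against -0.16, and the list median -0.14, against -0.08. COL1A1, a chain of type I collagen and the main protein of bone, had 899, 248 and 192 FPKM in G3C2, against 209, 82.1 and 184 FPKM in WT (1.25, SE 0.41, limma adjusted p = 0.278). THBS1, a secreted glycoprotein, had 1.90 (SE 0.39, limma adjusted p = 0.154), the fibrillar chain COL5A2 0.66 (SE 0.20, limma adjusted p = 0.25) and SPARC, a collagen-binding protein of bone, -0.02 (SE 0.25). Without replicate c, 5 of the 13 were called higher and 0 lower, in a fit that called 2.99% of all tested genes higher and 3.05% lower. In that fit the regulators, the mineralization genes and the osteocyte genes had 1 gene each called lower and 0 higher.

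The list of mineralization and phosphate genes had 7 tested of 15, with 0 higher and 1 lower under all 3 labels and a median of -0.11. PHOSPHO1, a phosphatase that starts mineral formation in matrix vesicles, had 1.12, 0.746 and 0.616 FPKM in G3C2, against 1.78, 1.15 and 1.01 FPKM in WT (-0.34, SE 0.14, limma adjusted p = 0.362). The phosphate transporter SLC20A1 had -0.17 (SE 0.17), and ENPP1, which makes the pyrophosphate that ALPL breaks down, 0.33 (SE 0.33). Osteocyte genes had 4 tested of 10, with 0 higher and 2 lower under all 3 labels. HYOU1, 1 of the 4, was listed at 0 in replicates b and c of both lines and could not count in either direction. CAPG, an actin-capping protein, had 32, 16.9 and 14.9 FPKM in G3C2, against 52.8, 30.5 and 31 FPKM in WT (-0.84, SE 0.14, limma adjusted p = 0.129), PDPN -0.18 (SE 0.16) and CD44 0.08 (SE 0.31). The late osteocyte gene MEPE was listed at 0 in all 6 libraries. Osteocalcin (BGLAP), a late osteoblast gene, was at 0, 0.127 and 0.186 FPKM in G3C2, against 0.193, 0.227 and 0.43 FPKM in WT.

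**Figure D4:**
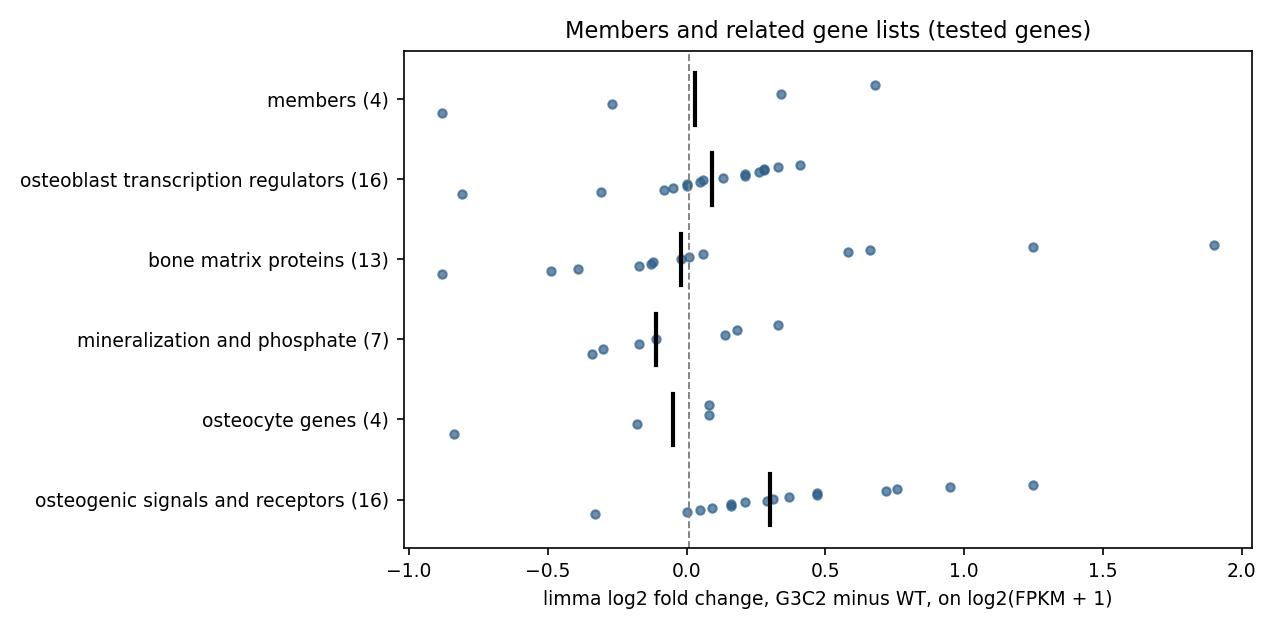
limma log2 fold change, G3C2 minus WT, of each tested gene (points) in the members and in 5 related lists, with the number tested in parentheses, the list median as a black bar and the median of all tested genes (0.01) as a dashed line. The medians lie between -0.11 and 0.30, and the osteogenic signals and receptors have the highest.

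Markers of other lineages were checked against the label of osteosarcoma cells. Of 6 skeletal muscle and 4 endothelial markers none reached 1 FPKM in every WT library, and of 9 osteoclast and myeloid markers only CTSK did. Of 10 chondrocyte markers SOX9, SOX5 and MATN3 did. ACAN, the main cartilage proteoglycan, lay close to the level at 1.25, 0.512 and 0.248 FPKM in G3C2, against 1.27, 1.03 and 0.981 FPKM in WT, and COL2A1, the cartilage collagen, did not exceed 0.102 FPKM in G3C2 and 0.199 FPKM in WT. SOX9, the chondrocyte master factor, had 37.6, 66.6 and 26.3 FPKM in G3C2, against 19.1, 48.9 and 45.9 FPKM in WT, higher in G3C2 under replicates 1 and b and lower under c, like RUNX2. The summed chondrocyte markers stood at 56.7 FPKM in G3C2 and 32 FPKM in WT in the first table, and in the second at 75 and 32.3 FPKM in G3C2 replicates b and c, against 56.4 and 54.8 FPKM in WT. SOX9 alone made up the larger part of each sum, so the sums mostly repeat its values. Of 7 adipocyte markers PPARG and LPL reached the level, and of 6 epithelial markers EPCAM, KRT18 and KRT8. The defining adipocyte gene ADIPOQ had 0 FPKM in all 3 G3C2 libraries and at most 0.0256 FPKM in WT.

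The members lie on 8 chromosomes, and genes around them were compared as a description of position. The 48 tested protein-coding genes within 2 Mb of SP7 had median differences of 0.43, 0.33 and 0.53 under replicates 1, b and c, and 31 were higher and 0 lower in G3C2 under all 3 labels, against 2289 and 2269 of all 12152. SP7 itself was above 0 only in WT replicate 1. Scaled to read totals, the replicate c median was 0.21, with 24 higher and 0 lower. Around TNFRSF11B the medians of 14 genes were 0.35, 0.08 and 0.29, with 7 higher and 2 lower, while TNFRSF11B had 0.92, 0.48 and -0.39, and the replicate c median was -0.01 when scaled to read totals. The 29 neighbours of RUNX2 had -0.13, -0.03 and -0.01, with 2 higher and 6 lower, against 1.27, 0.98 and -0.21 for RUNX2. The replicate c median varied with the window: 6 genes within 1 Mb of RUNX2 had 0.04, -0.04 and -1.02. Within 5 Mb, 68 genes had -0.10, -0.01 and 0.20. Around MSX2, which had -0.21, -0.30 and -0.30, the picture depended on the window: 24 genes within 2 Mb had -0.06, -0.07 and 0.18 (-0.05 under replicate c when scaled to read totals), and 69 genes within 5 Mb had -0.38, -0.31 and -0.09, with 3 higher and 30 lower.

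**Figure D5:**
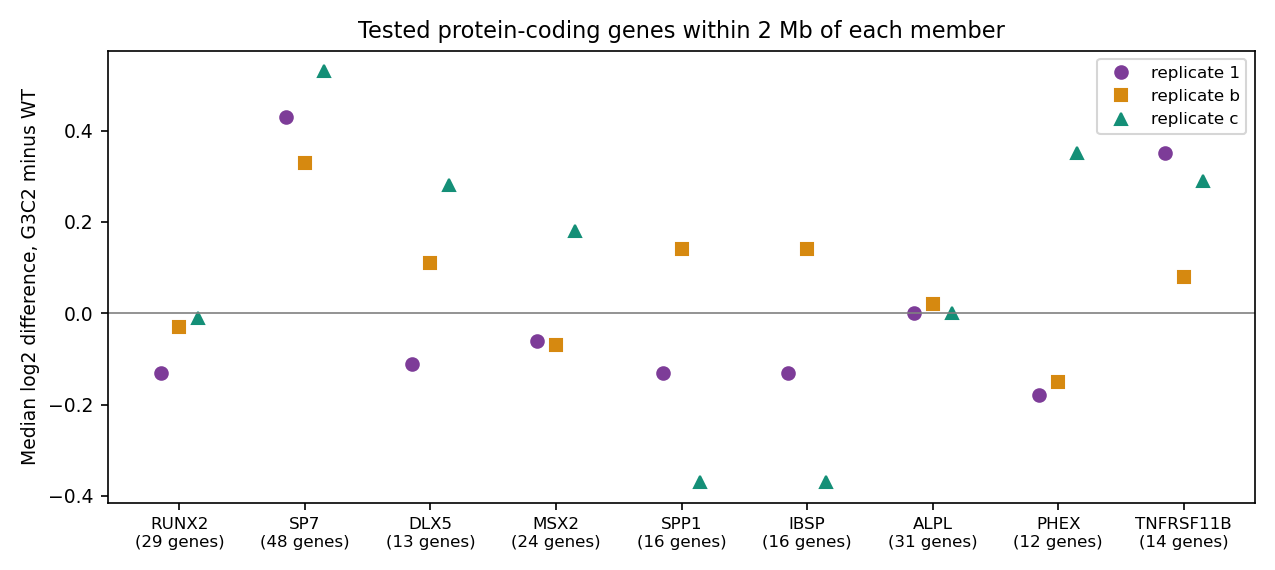
Median difference of log2(FPKM + 1), G3C2 minus WT, over tested protein-coding genes within 2 Mb of each member, under replicates 1, b and c, with the number of genes under each name. The neighbours of SP7 lie between 0.33 and 0.53 under all 3 labels, and those of RUNX2 between -0.13 and -0.01.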

How the data were processed

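Gene expression was measured by sequencing poly(A)-selected RNA of 3 G3C2 and 3 WT libraries. The values are FPKM that the authors deposited in 2 tables, per the file headers. CASAVA and HISAT2 appear in the submitters' processing notes, with GRCh38.p12 as the build. The counter, its annotation and strand setting are not given in the sources used here. Groups and the replicate letters b and c come from the sample titles, and the libraries without a letter are called replicate 1. Nothing assigns a letter to a culture, so p-values measure the spread between libraries, which may be technical.

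Of 56982 shared identifiers 56868 matched GENCODE 29, whose exon lengths turned 97.3% to 97.4% of the second table's values into whole reads within 0.02 reads. The test was limma 3.58.1 (R 4.3.3) on log2(FPKM + 1), with terms for line and table, a prior variance that follows the mean, and two-sided p-values adjusted by Benjamini-Hochberg at 0.05 over the 15001 genes with at least 1 FPKM in 2 libraries. The fit was tested on simulated data with independent noise of equal spread in every library. That setting does not test a library that departs from its group or a wrong divisor. Same-labelled libraries deviated together over all 6 libraries (r = 0.93, 0.80 and 0.60), but the separate tables alone give such values. Within the second table r for the b libraries was -0.17, so pairing by label is not shown. A fit with the replicate block was added, and 1 with the second table scaled to the sums of its reads. The limma-voom fit used the deposited divisors as library sizes. No exonic base of a member overlapped another gene.

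The members and lists were chosen with earlier results of these data known. Genes named from the related lists were those past the threshold, otherwise the 2 with the lowest unadjusted p moving 1 way under all 3 labels, and the 2 with the largest mean WT FPKM in the second table. From lists of other cell types they were those with at least 1 FPKM in every WT library. TNFSF11, TNFRSF11A, MEPE, BGLAP, ACAN, COL2A1, ADIPOQ, COL1A2, HYOU1 and LRP6 were named after their values were seen. Promoters came from RefSeq (GRCh38.p14), and UTRs from GENCODE 29. RefSeq promoters were matched for 5 members outside chromosome 8. Further steps used Python 3.11.15, pandas 2.3.3, scipy 1.17.1 and matplotlib 3.10.9.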

Additional observations from a re-analysis of the deposited data

How the results depend on the processing

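The direction of RUNX2, MSX2 and TNFRSF11B held in all 20 alternatives, and that of SPP1 in 19. Several alternatives return the main estimate by construction, and others share the estimate of the second table, so these are not 20 separate checks. By label, RUNX2 and TNFRSF11B were lower in G3C2 under replicate c, with differences of -0.21 and -0.39. The SPP1 log2 fold change was 0.02 without replicate c, against -0.88, and lay between -1.44 and 0.02 over the fits that leave out libraries. RUNX2 lay between 0.39 and 1.13 over those fits and passed the threshold once, without replicate c (1.13). MSX2 lay between -0.31 and -0.22 and TNFRSF11B between 0.05 and 0.75. ZFP36L1 reached 0.70 without replicate c, where it passed (limma adjusted p = 0.0237), but turned to -0.05 when replicate b was left out and to -0.03 when only its WT library was. For members below the filter, limma-voom on the recovered reads gave -0.65 for ALPL, 1.81 for DLX5 and -1.38 for PHEX, against mean differences of -0.25, 0.29 and -0.13. Reads carry no pseudocount of 1 FPKM, and replicate 1 does not enter there. Genes higher in G3C2, against 3, numbered 5 with equal medians, 1 with the second table scaled to read totals (chosen after seeing the data) and 0 with limma-voom, no filter, the replicate block, or the second table alone with or without the replicate block. Genes lower, against 4, numbered 1 under the stricter filter (mean FPKM 5), 1 under the replicate block, and 0 with no filter or the second table alone with or without the block. At an unadjusted p under 0.05 limma had 1745 genes with voom, 2990 with no filter, 1782 with the block, 1110 in the second table alone and 853 there with the block. When libraries were left out, the genes called higher ranged from 0 to 448, and those called lower from 0 to 457. The block changed no call of a member. The cause was otherwise not tested. At windows of 1 and 5 Mb the median of the neighbours was 0.44 and 0.23 around SP7, against 0.41 in the main window. It was -0.34 and 0.07 around RUNX2, against -0.02, and 0.07 and -0.29 around MSX2, against 0.04. Around ALPL it was -0.01 and 0.05, against 0.08, and around DLX5 0.36 and 0.09, against 0.11. Around SPP1, IBSP, PHEX and TNFRSF11B it moved by less than the spread between labels. The unknown depth of the first table limits replicate 1, and ALPL, DLX5 and PHEX rest on 2 to 63 reads per library.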

Other observations

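The partner chain of COL1A1, COL1A2, which joins it in type I collagen, was nearly absent while COL1A1 stood between 82.1 and 899 FPKM. COL1A2, picked after its values were seen, had 0.521, 0.277 and 0.211 FPKM in G3C2, against 0.0593, 0.0242 and 0.0141 FPKM in WT. The ratios were 8.8, 11.5 and 14.9 under replicates 1, b and c, on 82 and 53 reads in G3C2 replicates b and c, against 8 and 4 in WT. Of 19881 genes above 0 in every library, 32 (0.161%) had a ratio of at least 3 under all 3 labels. COL1A2 missed the filter on low values and was higher in G3C2 under 3 of 3 labels. For it limma-voom on the recovered reads gave a log2 fold change of 3.58 (SE 0.68, limma adjusted p = 0.195). That fit called 0.0272% of its 22021 genes and had 7.92% at an unadjusted p under 0.05.

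Among the related lists, HYOU1 had 191 FPKM in G3C2 and 162 FPKM in WT in the first table and was listed at 0 in all 4 libraries of the second, and LRP6 had 82.1 and 73.3 FPKM and the same zeros. BGLAP, the gene of osteocalcin, rested on 4 and 5 reads in G3C2 replicates b and c, against 8 and 13 in WT.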
